A study of Mus musculus with 8 samples.

Results

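The genes described here are the 10 members of a group of bone morphogenetic protein (BMP) and activin signals with their inhibitors and targets: the ligand genes *Inhba*, *Bmp6*, *Bmp4*, *Bmp5* and *Bmp2*, the inhibitor genes *Grem1* and *Fst*, and the target genes *Id1*, *Id2* and *Id3*. They were taken by gene symbol from a table of 15111 genes, and all 10 were found in it. The cells were primary dermal fibroblasts, grown for 72 h without serum, in a serum replacement medium on fibronectin. They came from adult mice that had been fed tamoxifen. In both groups the mice were homozygous for a floxed *Tgfb1* allele (Tgfb1fl/fl). Control mice had no Cre, whereas TGFβ1FKO mice (Tgfb1fl/fl:Col1a2-CreERT) also carried a Cre recombinase that tamoxifen activates and that is driven by the promoter of the collagen gene *Col1a2*, so that recombination depended on cells having used this promoter. Each group had 4 libraries of poly(A) RNA. Neither the labels nor the methods say whether each library came from a separate mouse, so the p-values below measure the spread between libraries, which may be technical.

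BMPs and activins are secreted ligands of the TGFβ superfamily that bind pairs of type I and type II serine/threonine kinase receptors. BMP receptors phosphorylate one set of Smad proteins and activin receptors, like those for TGFβ, phosphorylate another, and both sets enter the nucleus with Smad4. The Id genes are classical direct targets of BMP Smads and encode helix-loop-helix proteins without a DNA-binding domain that hold other factors of this family away from DNA. Gremlin 1 (*Grem1*) binds BMPs and follistatin (*Fst*) binds activins, and both keep their ligands from the receptors. In skin, the balance between BMPs and their inhibitors is known for its part in the hair follicle cycle.

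The promoters of 3 members are shown because in each of these genes 3 of the 4 TGFβ1FKO libraries lay outside the range of the control libraries. Each sequence runs 5′ to 3′ up to the RefSeq start of the gene, on the strand of the gene and on the build GRCm38.p6, over at most 250 bases and without bases that GENCODE M21 places in an exon of the gene. Capitals mark GGCGCC, a GC-rich motif bound by BMP Smads, and CAGAC or its reverse complement GTCTG, the Smad box. Both motifs were searched on both strands, and they do not overlap each other in these windows.
*Inhba* (chr13:16011601-16011850, plus strand): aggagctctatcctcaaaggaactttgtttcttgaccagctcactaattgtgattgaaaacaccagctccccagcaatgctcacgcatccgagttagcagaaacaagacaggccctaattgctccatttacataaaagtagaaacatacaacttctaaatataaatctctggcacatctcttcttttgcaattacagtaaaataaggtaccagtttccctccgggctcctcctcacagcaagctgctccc
*Grem1* (chr2:113758649-113758898, minus strand): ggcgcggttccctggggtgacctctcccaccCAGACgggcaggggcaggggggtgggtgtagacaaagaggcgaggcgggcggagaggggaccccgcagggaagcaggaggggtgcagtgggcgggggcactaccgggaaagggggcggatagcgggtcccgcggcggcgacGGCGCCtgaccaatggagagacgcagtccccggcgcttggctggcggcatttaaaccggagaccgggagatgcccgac
*Id2* (chr12:25096254-25096342, minus strand): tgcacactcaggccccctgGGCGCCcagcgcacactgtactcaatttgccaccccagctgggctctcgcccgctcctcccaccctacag
The 250 bases before the start of *Inhba* hold neither motif. *Grem1* holds CAGAC 219 bases and GGCGCC 78 bases before its start. *Id2* holds GGCGCC 231 bases before its start, outside the exon of a longer transcript that covers the 161 bases nearest to it. The window of *Id3* lies wholly within an annotated exon and is not printed, and it holds CAGAC at 167 and GTCTG at 68 bases before the start. Among 32851 RefSeq promoters cut to the same 250 bases, 9.59% held GGCGCC and 42.2% held the Smad box. These are matches of letters and show no binding.

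Levels below are normalised counts, the reads of a gene divided by the size factor of its library. The recovered reads of control libraries totalled 16988998 to 21806579, and those of TGFβ1FKO libraries 17445002 to 23071528. Fold changes are TGFβ1FKO over control on the scale of log2(normalised count + 1). They come with a standard error (SE) and an adjusted p from limma with Benjamini-Hochberg adjustment over all 15111 genes. A gene was called where this adjusted p was under 0.05 and its log2 fold change beyond 0.6 in either direction. The added 1 shrinks changes of genes with few reads, but limma did not always give smaller changes than tests on reads. The log2 fold changes of *Bmp2*, *Bmp4* and *Bmp5* were −0.38, −0.12 and −0.17 by limma. With edgeR and the table's size factors they were −0.32, −0.04 and −0.21. *Tgfb1*, the targeted gene on chromosome 7, had 1374 ± 85.4 (SD, n = 4) in controls and 277 ± 42.5 (SD, n = 4) in TGFβ1FKO, which left 20.2% of the control level (log2 fold change −2.31, SE 0.10, limma adjusted p = 1.53e-07). All 9 fibroblast markers listed were in the table and none of them was called. For each library, the median absolute log2 deviation from the other libraries of its group was taken over 11561 genes (mean of at least 50). It was 0.106 for TGFβ1FKO replicate 1, the highest of its group, where the others had 0.102, 0.090 and 0.068. The control libraries had 0.102 to 0.126.

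None of the 10 members was called. By limma, 0 passed both thresholds, where 13 of 15111 genes (0.086%) did, and edgeR and DESeq2 on the recovered reads also called 0 members. At an unadjusted limma p under 0.05 there were 4 members, *Inhba* and *Grem1* with higher means in TGFβ1FKO and *Id1* and *Id3* with lower means, beside 7.46% of all genes. The log2 fold change was above 0 for 2 members and below 0 for 8. The median of the members was −0.23 and that of all genes 0.0031. In none of the 10 did the libraries of the 2 groups separate without overlap, which 3.79% of all genes did. In bulk RNA, fewer cells of a type and less RNA per cell cannot be told apart, and this holds for every difference given here.

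**Figure D1:**
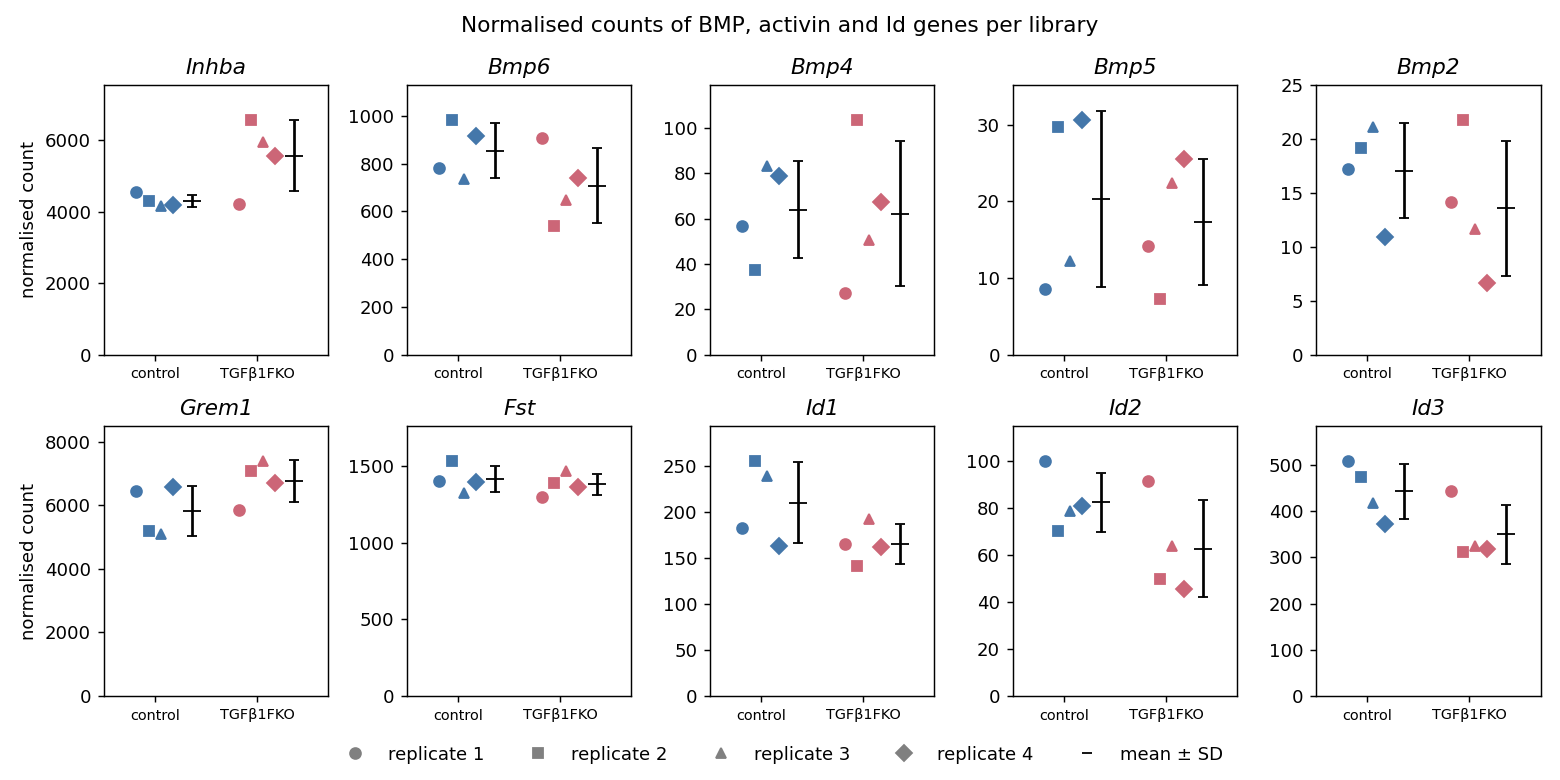
Normalised counts (vertical axes, linear from 0) of the 10 members in the 4 control and the 4 TGFβ1FKO libraries, with 1 point per library, a marker shape per replicate number and the mean ± SD of each group as a bar. The groups overlap in every panel, and TGFβ1FKO replicate 1 is the library that keeps *Inhba*, *Grem1*, *Id2* and *Id3* from separating.

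Among the ligands, *Inhba* had the highest level and the lowest p. It encodes the βA subunit, a pair of which makes activin A, and lies on chromosome 13 of GRCm38 (ENSMUSG00000041324, 16011851 to 16031621, plus strand). The control libraries had 4554, 4295, 4166 and 4202 normalised counts. The TGFβ1FKO libraries had 4218, 6571, 5958 and 5571. The 4 controls were close to each other, and 3 TGFβ1FKO libraries lay above all of them while replicate 1 lay inside their range. Means were 4304 ± 175 in controls and 5579 ± 997 in TGFβ1FKO (SD, n = 4 each), so the spread was wider in TGFβ1FKO. The fold was 1.28 (log2 fold change 0.36, SE 0.11, 95% interval 0.13 to 0.59), with an unadjusted p of 0.0052 and an adjusted p of 0.477 by limma. A two-sided exact permutation test of the 8 values gave p = 0.0857, where the smallest p that 4 libraries against 4 allow is 0.0286. Without TGFβ1FKO replicate 1 the log2 fold change of *Inhba* was 0.48 and its limma adjusted p 0.0183, still below the fold threshold. Over the limma, edgeR and DESeq2 alternatives that test against a change of 0, its adjusted p ran from 0.0183 to 0.888.

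*Bmp6* encodes a BMP ligand of the same subgroup as BMP5 and lies on chromosome 13 (ENSMUSG00000039004, 38345107 to 38500302, plus strand). Controls had 779, 982, 736 and 916 normalised counts, and TGFβ1FKO libraries had 906, 537, 648 and 738. The libraries of TGFβ1FKO replicates 2 and 3 lay below all controls, and the other two lay inside the control range. Means were 853 ± 115 and 707 ± 156 (SD, n = 4 each), a log2 fold change of −0.29 with a 95% interval of −0.59 to 0.01 (limma adjusted p = 0.671). Without TGFβ1FKO replicate 2 the log2 fold change of *Bmp6* was −0.16. The exons of *Bmp6* share 224 bases with those of *Txndc5* on the opposite strand, a gene for a disulfide isomerase of the endoplasmic reticulum with a mean of 11383 normalised counts, and as the libraries are non-directional, reads from the shared bases cannot be assigned by strand. *Txndc5* had means of 11598 in controls and 11168 in TGFβ1FKO (log2 fold change −0.06, limma adjusted p = 0.826).

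The other three BMP ligands were detected at low levels. *Bmp4*, a ligand made by mesenchymal cells of skin and many other organs, lies on chromosome 14 (ENSMUSG00000021835, 46383520 to 46390669, minus strand) and had 27 to 100 reads per library. Its control libraries had 56.8, 37.2, 83.2 and 79.0 normalised counts and its TGFβ1FKO libraries 27.4, 103.6, 50.7 and 67.6. The lowest and the highest value of *Bmp4* were thus both from TGFβ1FKO. Means were 64.0 ± 21.3 and 62.3 ± 32.1 (SD, n = 4 each) and the log2 fold change was −0.12 with a 95% interval of −0.90 to 0.65, so a change of either sign was not detectable within these bounds.

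*Bmp5* (chromosome 9, ENSMUSG00000032179, 75775364 to 75900310, plus strand) had 8.60, 29.8, 12.2 and 30.6 normalised counts in controls and 14.2, 7.25, 22.4 and 25.5 in TGFβ1FKO, from 7 to 31 reads per library. Its groups overlapped almost wholly, with a log2 fold change of −0.17 and a 95% interval of −1.17 to 0.84. *Bmp2* (chromosome 2, ENSMUSG00000027358, 133552159 to 133562885, plus strand), whose protein is a close relative of BMP4, had 17.2, 19.1, 21.1 and 10.9 in controls and 14.2, 21.7, 11.6 and 6.65 in TGFβ1FKO, from 6 to 21 reads per library. Its log2 fold change was −0.38 with a 95% interval of −1.17 to 0.41, and it was −0.11 without TGFβ1FKO replicate 4 and −0.63 without TGFβ1FKO replicate 2. The lowest and the highest *Bmp2* value were both from TGFβ1FKO. Without a strand, reads of *Bmp5* and *Bmp4* cannot be told from those of *Gm26903* and *Gm15217* on the opposite strand, whose exons share 1878 and 89 bases with theirs.

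**Figure D2:**
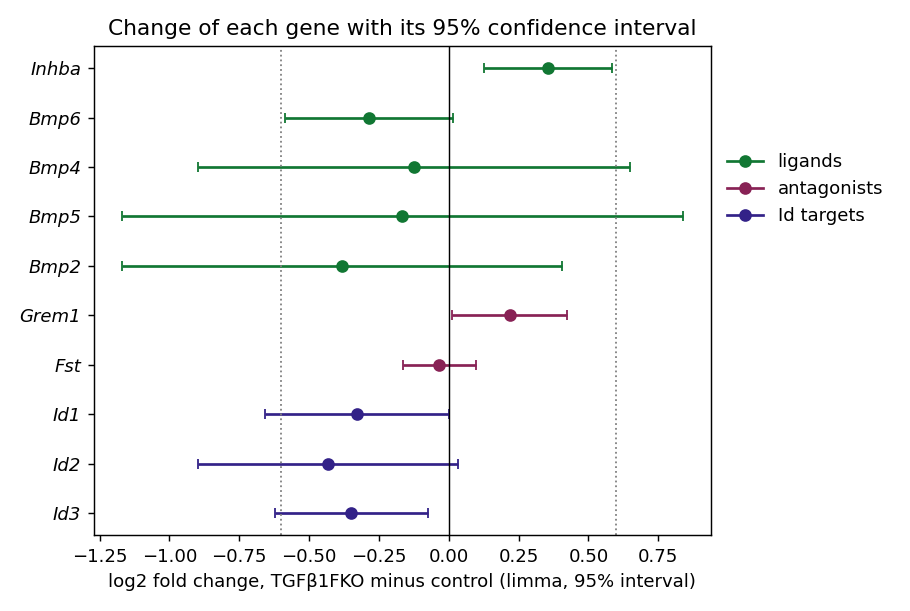
Log2 fold change of each member (TGFβ1FKO minus control, horizontal axis) with its 95% interval from limma. The intervals of *Inhba* and *Grem1* lie above 0, those of *Id1* and *Id3* below 0, and the widest belong to *Bmp5*, *Bmp2* and *Bmp4*, the ligands with the fewest reads.

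Of the inhibitors, *Grem1* had the highest level of all members per length. It lies on chromosome 2 (ENSMUSG00000074934, 113746164 to 113758646, minus strand). Controls had 6444, 5203, 5095 and 6588 normalised counts, and TGFβ1FKO libraries had 5864, 7100.2, 7391 and 6701. Controls fell into a higher and a lower pair, 3 TGFβ1FKO libraries lay above all controls, and replicate 1 lay between the pairs. Means were 5833 ± 793 and 6764 ± 664 (SD, n = 4 each), a log2 fold change of 0.22 with SE 0.09 and an adjusted p of 0.654 by limma. The two-sided exact permutation p was 0.143 (n = 4 each).

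*Fst* (chromosome 13, ENSMUSG00000021765, 114452290 to 114458951, minus strand) was the member with the narrowest interval. Controls had 1402, 1533, 1326 and 1401 normalised counts, and TGFβ1FKO libraries had 1302.5, 1393, 1468 and 1368. TGFβ1FKO replicate 1 was the lowest of the 8 and control replicate 2 the highest. Means were 1416 ± 86.0 and 1383 ± 68.4 (SD, n = 4 each), and the log2 fold change of −0.03 had a 95% interval of −0.16 to 0.10 (limma adjusted p = 0.927). The antisense gene *Gm47040* shares 115 exon bases with *Fst*.

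The reads of *Inhba* were set against those of its inhibitor's gene *Fst* within each library, as a ratio not corrected for length. The ratio was 3.25, 2.80, 3.14 and 3.00 in controls and 3.24, 4.72, 4.06 and 4.07 in TGFβ1FKO. TGFβ1FKO replicate 1 had the ratio of a control, and the other three lay above every control. On the log2 scale the means were 1.61 ± 0.092 and 1.99 ± 0.224 (SD, n = 4 each). For *Bmp4* against *Grem1* the log2 ratio was −6.57 ± 0.521 in controls and −6.92 ± 0.709 in TGFβ1FKO, and the groups overlapped.

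All 3 member *Id* genes had lower means in TGFβ1FKO, and none was called. *Id3* had the lowest p of them and lies on chromosome 4 (ENSMUSG00000007872, 136143497 to 136145755, plus strand). Its control libraries had 508, 475, 419 and 373 normalised counts and its TGFβ1FKO libraries 445, 312, 324 and 319. In TGFβ1FKO, 3 libraries lay close together and below all controls, and replicate 1 lay among the controls. Means were 444 ± 59.8 and 350 ± 63.6 (SD, n = 4 each). The log2 fold change was −0.35 with SE 0.13 and a 95% interval of −0.62 to −0.08, the unadjusted p 0.0163 and the adjusted p 0.597 by limma. The two-sided exact permutation p was 0.0857 (n = 4 each).

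*Id1* (chromosome 2, ENSMUSG00000042745, 152736251 to 152737410, plus strand), often read as a sign of BMP signalling, had 182, 255, 239.5 and 163 normalised counts in controls and 165, 141, 193 and 162 in TGFβ1FKO. Control replicates 2 and 3 lay above every TGFβ1FKO library, whereas the other two controls lay within the TGFβ1FKO range. Means were 210.0 ± 44.2 and 165 ± 21.3 (SD, n = 4 each), a log2 fold change of −0.33 with SE 0.15 and a limma adjusted p of 0.669. *Id2* (chromosome 12, ENSMUSG00000020644, 25093799 to 25097140, minus strand) had 99.8, 70.1, 78.7 and 81.0 in controls and 91.2, 49.7, 63.9 and 45.4 in TGFβ1FKO, from 41 to 116 reads per library. As for *Id3*, 3 TGFβ1FKO libraries lay below all controls and replicate 1 lay inside the control range. The log2 fold change of *Id2* was −0.43 with SE 0.21 and a limma adjusted p of 0.675.

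Per library, the members did not deviate to the same degree. TGFβ1FKO replicate 1 lay inside the control range in 8 of the 10 members, replicate 3 in 5, replicate 4 in 4 and replicate 2 in 1. Without replicate 1, the groups separated in 4 members, *Inhba* and *Grem1* higher and *Id2* and *Id3* lower in TGFβ1FKO, where 9.34% of all genes separated. With any one of the other 7 libraries left out, 0 members separated, beside 5.55% to 8.33% of all genes. None of the members was called by limma with any single library left out. The summed normalised count of 8 Schwann cell markers in the table, of 10 listed, was 1726 to 2488 in controls and 900.1 to 1814 in TGFβ1FKO, with replicate 1 at 1814, while *Gfap* is not in the table. Most of this sum came from *Ngfr*, with means of 1446 in controls and 971 in TGFβ1FKO. All 8 had lower means in TGFβ1FKO and an unadjusted limma p under 0.05, 3 of them were called, and their median log2 fold change was −2.35. In 6 of the 8, all TGFβ1FKO libraries, replicate 1 included, lay below all controls, as in *Sox10*, a transcription factor of the Schwann cell lineage, with 72.1 to 207 normalised counts in controls and 7.25 to 21.1 in TGFβ1FKO. The summed count of the 8 endothelial markers was 538 to 830 and 521 to 560.3, with replicate 1 at 521. All 8 had a log2 fold change below 0, with a median of −0.55. By limma 0 of the 8 were called, with 2 at an unadjusted p under 0.05. Among the lists for melanocytes, keratinocytes, macrophages, pericytes and smooth muscle, and adipocytes, 0 markers were called by limma. At an unadjusted limma p under 0.05 there were 2 of 3 keratinocyte markers and 2 of 6 pericyte and smooth muscle markers. Of these, *Trp63* (log2 fold change 0.57), *Dsp* (1.01) and *Myh11* (0.71, limma adjusted p = 0.065) were higher in TGFβ1FKO, and *Cspg4* (−0.50) was lower. The groups did not overlap in *Dsp* and *Myh11*, beside 3.79% of all genes. The keratin genes *Krt5*, *Krt14* and *Krt1*, the leukocyte gene *Ptprc* and all 6 skeletal muscle markers are not in the table. The part of these cell types in the members' values was not tested.

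**Figure D3:**
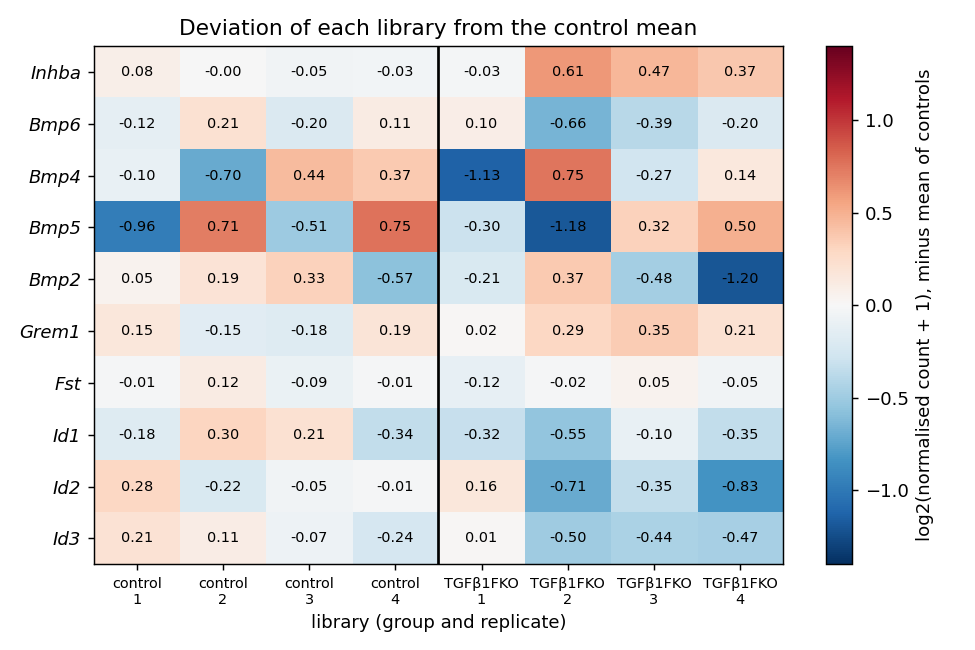
Deviation of each library from the control mean of log2(normalised count + 1), by member (vertical) and library (horizontal), with red above and blue below the control mean. TGFβ1FKO replicates 2, 3 and 4 lie above it in *Inhba* and *Grem1* and below it in *Id1*, *Id2*, *Id3* and *Bmp6*, whereas replicate 1 lies near 0 in *Inhba*, *Grem1* and *Id3*.

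Compared per length of annotated exons, the members spanned a wide range in control fibroblasts. The highest were *Grem1* with 1406 ± 191 normalised counts per kb, *Inhba* with 674 ± 27.4 and *Fst* with 309 ± 18.7 (SD, n = 4 each). Then came *Id3* with 248 ± 33.4, *Bmp6* with 219 ± 29.4 and *Id1* with 181 ± 38.1 (SD, n = 4 each). The lowest were *Id2* with 33.8 ± 5.13, *Bmp4* with 28.5 ± 9.48, *Bmp5* with 5.04 ± 2.86 and *Bmp2* with 4.80 ± 1.24 (SD, n = 4 each). The ranges of neighbours in this order overlapped for *Id3* and *Bmp6*, *Bmp6* and *Id1*, *Id2* and *Bmp4*, and *Bmp5* and *Bmp2*, in controls and likewise in TGFβ1FKO. The transcripts of both inhibitors thus stood above those of every BMP ligand per length, and that of *Inhba* stood above that of its inhibitor *Fst*.

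Relations of *Id1* to each of the other members, and of *Id2* to *Id3*, were computed over the 8 libraries, in 10 pairs. *Id2* and *Id3* had Pearson's r = 0.83 (exact permutation p = 0.0127, Benjamini-Hochberg adjusted p = 0.127) and Spearman's rho = 0.81 (exact permutation p = 0.0218, adjusted p = 0.218). With each group centred on its mean the r was 0.73. It was 0.34 within the 4 control libraries and 0.91 within the 4 TGFβ1FKO libraries. Without TGFβ1FKO replicates 2 and 4, the libraries farthest from the median of *Id2*, the r was 0.67. *Id1* and *Grem1* had r = −0.76 (exact permutation p = 0.0317, adjusted p = 0.159) and rho = −0.60 (exact permutation p = 0.132, adjusted p = 0.441). Without control replicates 2 and 3 this r was 0.06, so the relation rests on those libraries. None of the 10 pairs passed the adjustment, and the lowest adjusted p of the other 8 by Pearson's r was 0.461.

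**Figure D4:**
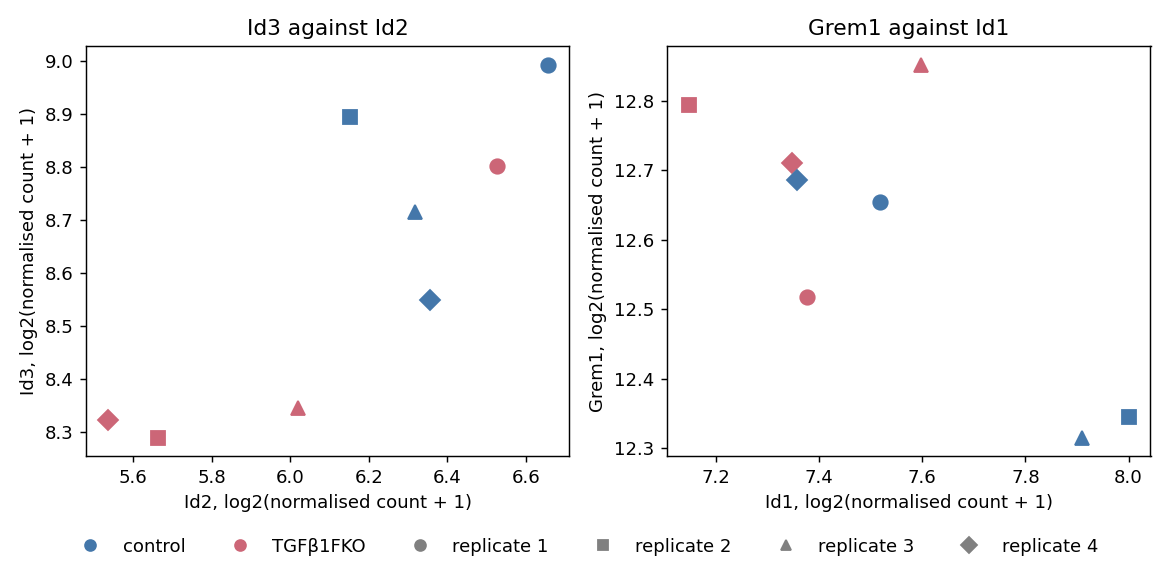
Log2(normalised count + 1) of *Id3* against *Id2* (left) and of *Grem1* against *Id1* (right), with 1 point per library, colours for the groups and shapes for the replicate numbers. On the left TGFβ1FKO replicate 1 lies with the controls, and on the right the relation is set by control replicates 2 and 3, which are high in *Id1* and low in *Grem1*.

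Genes whose log2 values followed those of 4 members most closely were ranked by Pearson's r over the 8 libraries, among 11553 genes with a mean of at least 50 normalised counts. These values are descriptions, as all genes share the same libraries and size factors. The log2 values were not centred on the group means, so each r also holds any difference between the groups. For *Inhba* they were *Igfbp5*, which encodes a binding protein of insulin-like growth factors (r = 0.989), the ceramide synthase gene *Cers2* (r = 0.978) and *Kcnmb1*, a potassium channel subunit (r = 0.968). For *Id1* they were *Kcnab1* (r = 0.983), *Nov* (r = 0.965), a matricellular protein also called CCN3, and *Gm1821* (r = 0.955). *Grem1* was followed by *Zfand3* (r = 0.965), *Jazf1* (r = 0.963) and *Rnf44* (r = 0.942), and *Bmp4* by *Zfp976* (r = 0.954), *Ndst3* (r = 0.952) and *Fkbp14* (r = 0.947).

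Of 81 other genes of the pathway on the list, 59 were in the table. By limma 0 of these were called, beside 13 of all 15111 genes (0.086%). By edgeR and DESeq2 0 were called as well, beside 20 (edgeR, table's size factors) and 56 (DESeq2 against 0) of all genes. With shares this low, 0 of 59 says little about the pathway. By limma, 6 of the 59 had an unadjusted p under 0.05, 4 of them with higher and 2 with lower means in TGFβ1FKO, beside the 7.46% of all genes. Their log2 fold change was above 0 for 31 and below 0 for 28, with a median of 0.0033. By role, 10 of 22 further ligands, 15 of 20 inhibitors, 13 of 16 receptors, all 10 Smads and Smurfs and 11 of 13 targets and helix-loop-helix partners were in the table. The medians of these 5 lists lay between −0.02 and 0.07 on the log2 scale. Those of the member ligands, the member inhibitors and the member *Id* genes were −0.17, 0.09 and −0.35. *Id4*, one of the further targets and named here after its value was seen, went the other way from the member *Id* genes. It had means of 1145 in controls and 1247 in TGFβ1FKO (log2 fold change 0.11, limma adjusted p = 0.915).

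The groups did not overlap in 2 of the 59, beside the 3.79% of all genes. *Chrd* encodes chordin, a BMP-binding inhibitor, and had 158 ± 19.9 normalised counts in controls and 107.5 ± 21.1 in TGFβ1FKO (SD, n = 4 each), with a log2 fold change of −0.56 and a limma adjusted p of 0.444. Its exons share 239 bases with those of *Thpo* on the opposite strand, which had a mean of 8.71 normalised counts. *Acvr1b* encodes the activin type I receptor ALK4 and had 301 ± 19.0 and 263 ± 24.0 (SD, n = 4 each), with a log2 fold change of −0.20 and a limma adjusted p of 0.671. Another 4 genes, named here after their values were seen, also had an unadjusted limma p under 0.05, with overlapping groups. They were the BMP inhibitor *Crim1* (log2 fold change 0.22), the BMP Smad gene *Smad9* (0.47) and the ligand genes *Bmp8b* (0.81) and *Gdf10* (−0.72). *Bmp8b* had 9 to 55 reads per library, and all 4 of its TGFβ1FKO libraries lay inside the control range. By edgeR with the table's size factors its log2 fold change was 0.58 (edgeR unadjusted p = 0.142).

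The pathway genes with the highest level per length in each list had log2 fold changes between −0.09 and 0.25. Among ligands, *Inhbb*, which encodes the βB subunit of activin B, had a log2 fold change of 0.18 and *Gdf15* one of 0.25. Among inhibitors it was −0.01 for *Fstl1* and −0.09 for *Nbl1*. Of the co-receptor genes, *Eng* had 0.0020 and *Tgfbr3* −0.03. It was −0.01 for *Smad4*, the Smad shared by both branches, and 0.06 for *Smurf1*, a ubiquitin ligase that acts on BMP Smads. For *Twist1* and *Tcf3*, helix-loop-helix factors, it was 0.06 and 0.01. None of these 10 genes had an unadjusted limma p under 0.05.

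**Figure D5:**
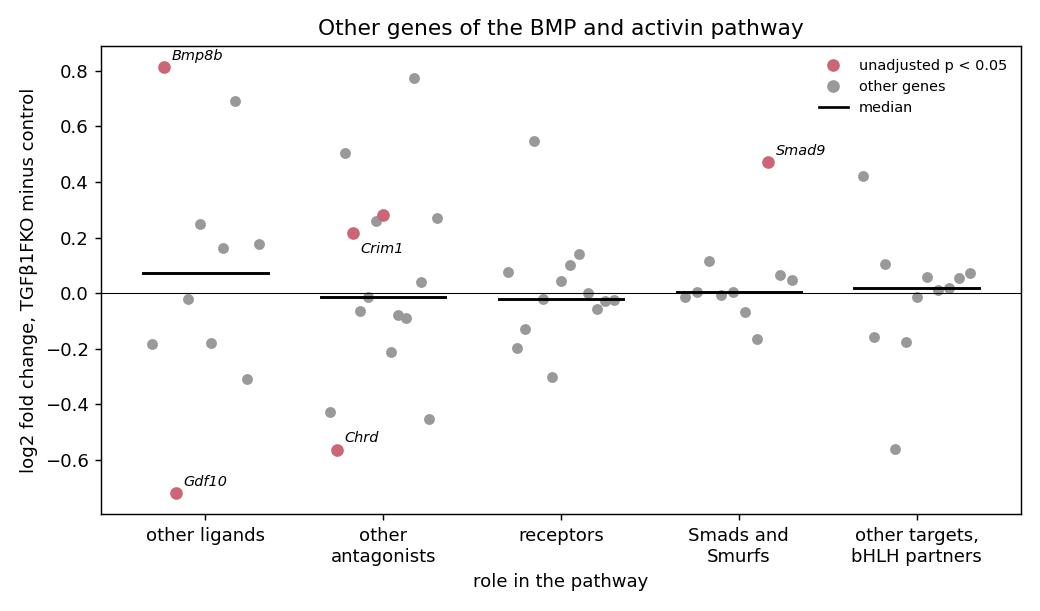
Log2 fold change (TGFβ1FKO minus control, vertical axis) of the 59 other pathway genes in the table by role, with 1 point per gene, a line at the median of each role and red points for the 6 genes with an unadjusted limma p under 0.05. The medians of all 5 roles lie between −0.02 and 0.07.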

How the data were processed

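Poly(A) RNA of 4 control and 4 TGFβ1FKO cultures was sequenced in paired-end, non-directional libraries. The submitters' processing notes name CASAVA 1.8, HISAT2 2.0.5, featureCounts 1.5.0-p3, R 4.3.2, DESeq2 1.42.0 and GRCm38, and the methods say that genes with few reads were left out. The authors deposited a signal per gene and library for 15111 genes, namely DESeq2-normalised counts to which 0.5 had been added. Each gene had at least 41 reads over the 8 libraries. The table also holds columns of the authors' own comparison (a mean, log2 fold changes, their errors, Wald statistics, p-values), and these were not used.

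The 0.5 was subtracted, and whole reads were recovered (100% of values within 0.1 read of a whole number). The design provided a test for raw counts and one for normalised counts, and as the deposited values were normalised, log2(normalised count + 1) was compared with limma 3.58.1 with a mean-variance trend in R 4.3.3, with Benjamini-Hochberg adjustment over all genes. On the recovered reads, edgeR 4.0.16 called 20 genes with the table's size factors and 22 with TMM, and DESeq2 1.42.0 called 56 against a fold change of 0. Two-sided exact permutation tests were run on single genes. Of the tests, limma, edgeR and DESeq2 against a fold change of 0 were tried on simulated data whose fold changes were known. Alternatives covered the test, the scaling, pseudocounts of 0.5 and 5, filters of at least 10 reads in every library and of a mean of at least 50, a block for the replicate number and leaving out single libraries. PCR reads are not independent molecules.

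The members, the pathway lists and the lists of cell type markers were chosen with earlier results of these data known. Genes were named by a rule: every member, *Tgfb1*, the 2 genes of each pathway list with the highest normalised count per kb, the pathway genes called or without overlap of the groups, and the 3 genes most like each of *Bmp4*, *Inhba*, *Grem1* and *Id1*. GENCODE M21 (GRCm38) gave coordinates and exon lengths and listed 15105 of the genes. Promoters are from RefSeq on GRCm38.p6, which gave 7 of the 10 members, with none for *Id1*, *Bmp2* and *Fst*. Some genes of the lists are not reported here by name.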

Additional observations from a re-analysis of the deposited data

Results flagged for a closer look

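*Id3* in TGFβ1FKO replicate 1 had 445 normalised counts, far from the other 3 libraries of its group, which had 312 to 324, and by Dixon's test the gap was 0.909 of the range, above the 95% critical value for 4 values. It was the one value marked in this way among 22 groups of 4 libraries tested, and chance marks about 1 in 20 such groups. Without this library the log2 fold change of *Id3* was −0.47, with a limma adjusted p of 0.182. Over the limma, edgeR and DESeq2 alternatives that test against a change of 0, its adjusted p ran from 0.182 to 0.897.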

How the results depend on the processing

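Under every alternative run, 0 members and 0 of the other pathway genes were called, and *Tgfb1* stayed called. The number of all genes called by limma was 13 and moved to 20 with edgeR and the table's size factors, 22 with edgeR and TMM, 56 with DESeq2 against 0, 3 with at least 10 reads in every library, 4 with a mean of at least 50, 31 with the replicate number as a block, and 5 to 32 with each library left out (32 without control replicate 4). Members without overlap numbered 0 to 4 with each library left out (4 without TGFβ1FKO replicate 1, chosen after seeing the data). Deviations from the group means of same-numbered libraries correlated at 0.156, −0.134, 0.052 and 0.159 over 11561 genes, none best with its own number. These 4 values show no clear pairing by replicate number, but so few cannot exclude one. The block changed no call among the members and the other pathway genes. With each library left out the log2 fold change crossed 0 for *Bmp4* (−0.42 to 0.21), *Bmp5* (−0.49 to 0.17), *Fst* (−0.064 to 0.0058), *Fstl1* (−0.056 to 0.012), *Eng* (−0.057 to 0.045), *Tgfbr3* (−0.064 to 0.014), *Smad4* (−0.026 to 0.014), *Tcf3* (−0.020 to 0.036) and *Twist1* (−0.011 to 0.11). That of *Eng* was −0.0032 with TMM in limma. The correlation of *Id1* with *Id2* was −0.058 when centred on group means, and without the 2 farthest libraries that of *Id1* was −0.25 with *Bmp2* and 0.058 with *Grem1*. The causes were not tested. *Inhba*, *Grem1*, *Bmp6*, *Bmp2* and the member *Id* genes kept their direction under every alternative run. *Bmp2*, *Bmp5* and *Bmp4* had log2 SDs within a group of 0.40 to 0.87, and how much of this is counting error was not tested.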
